A study of Bos taurus with 30 samples.

Results

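Type I interferons are signals that cells release on sensing a virus or other danger. They act on a cell surface receptor, and through JAK kinases and STAT proteins they switch on a shared set of antiviral genes, the interferon response genes, in hepatocytes as in most other cells. The 8 such genes described here were chosen by a given list of Ensembl identifiers that also supplies their symbols, and all 8 of 8 were present among the 24596 genes of the deposited table. MX1 (ENSBTAG00000030913) and MX2 (ENSBTAG00000008471) encode dynamin-like GTPases that block viral replication. ISG15 (ENSBTAG00000014707) encodes a ubiquitin-like protein that is joined to other proteins. OAS2 (ENSBTAG00000014628) and OAS1Y (ENSBTAG00000039861) encode oligoadenylate synthetases, which sense double-stranded RNA and activate the ribonuclease RNase L. RSAD2 (ENSBTAG00000016061) encodes viperin, an enzyme that makes a chain-ending nucleotide, IFIT1 (ENSBTAG00000007881) encodes a protein that binds foreign RNA, and IFI6 (ENSBTAG00000007554) encodes a small hydrophobic membrane protein.

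The genes were read from polyadenylated RNA of liver samples from 30 Holstein-Friesian by Angus heifer calves, 1 library per calf, all sampled at 21 weeks of age. The diets began at 2 weeks. A High plane of nutrition was fed to 15 calves (daily milk replacer of 1.5 kg made up to 10 litres, concentrate without limit, target gain 1.2 kg a day) and a Moderate plane to the other 15 (0.5 kg made up to 4 litres, 1 kg of concentrate, target gain 0.5 kg a day). After an 8-week calf phase, an 11-week phase after weaning followed, in which all calves had hay to appetite and concentrate was again unlimited for High and 1 kg a day for Moderate. The series compares these diets and names no infection, vaccination or interferon treatment. Libraries held 11528471 to 17906182 reads, and replicate numbers only name the calves of a diet. The tissue label was not checked against marker genes, since the table pairs no identifier with a gene name, and the extraction text names hypothalamus where all other labels say liver. In such bulk samples fewer cells of a type and less RNA per cell cannot be told apart.

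Values are given in scaled CPM, the reads of a gene per 1000000 reads of its library after the library total was multiplied by a scaling factor. They are not corrected for gene length, so levels are compared between calves and not between genes. All 8 genes passed the filter on low counts that left 12913 tested genes, with 12 to 11566 reads per gene and library. In the RefSeq gene table of the assembly ARS-UCD2.0, MX1 and MX2 are neighbours and OAS2 overlaps OAS1Y. The strand setting of the counting is not given in the sources used here, so reads of OAS2 and OAS1Y may have been mixed. OAS1Y is also 1 of several near-identical OAS1 copies in cattle, among which reads could be split.

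The interferon response genes varied widely from calf to calf on either diet. MX1 ran from 33.3 scaled CPM in its lowest High library through a median of 84.5 to 582 in its highest, and from 42.4 through 148 to 310 in Moderate. The ranges overlapped, but the High calves reached both further up and further down: 3 High libraries lay above every Moderate library and 4 lay below every one. ISG15 had the widest range of the High calves, from 5.52 through a median of 21.0 to 226 scaled CPM, which is a 41.0-fold span. In Moderate calves ISG15 ran from 8.04 through 47.1 to 84.2, a 10.5-fold span, and again 3 High libraries lay above and 4 below all Moderate libraries. MX2 ran from 3.25 through 8.32 to 45.5 in High and from 3.96 through 8.46 to 24.9 in Moderate.

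The RNA-sensing and RNA-binding genes also varied several-fold within each diet. OAS1Y ran from 23.4 through 71.5 to 311 scaled CPM in High and from 29.1 through 115 to 208 in Moderate. OAS2 ran from 2.40 through 4.19 to 17.5 in High and from 2.82 through 5.71 to 13.5 in Moderate. For both genes the top of the range was a High calf and the diets overlapped over most of their length. IFIT1 ran from 2.64 through 4.43 to 28.6 in High and from 0.817 through 5.87 to 15.7 in Moderate, and its lowest value rested on 12 reads. RSAD2 had the narrowest span of the 8, from 11.2 through 16.1 to 48.1 in High and from 9.54 through 19.1 to 36.8 in Moderate. IFI6 was the exception, with its highest value in a Moderate calf: it ran from 32.2 through 64.8 to 463 in High and from 27.6 through 91.6 to 685 in Moderate.

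**Figure D1:**
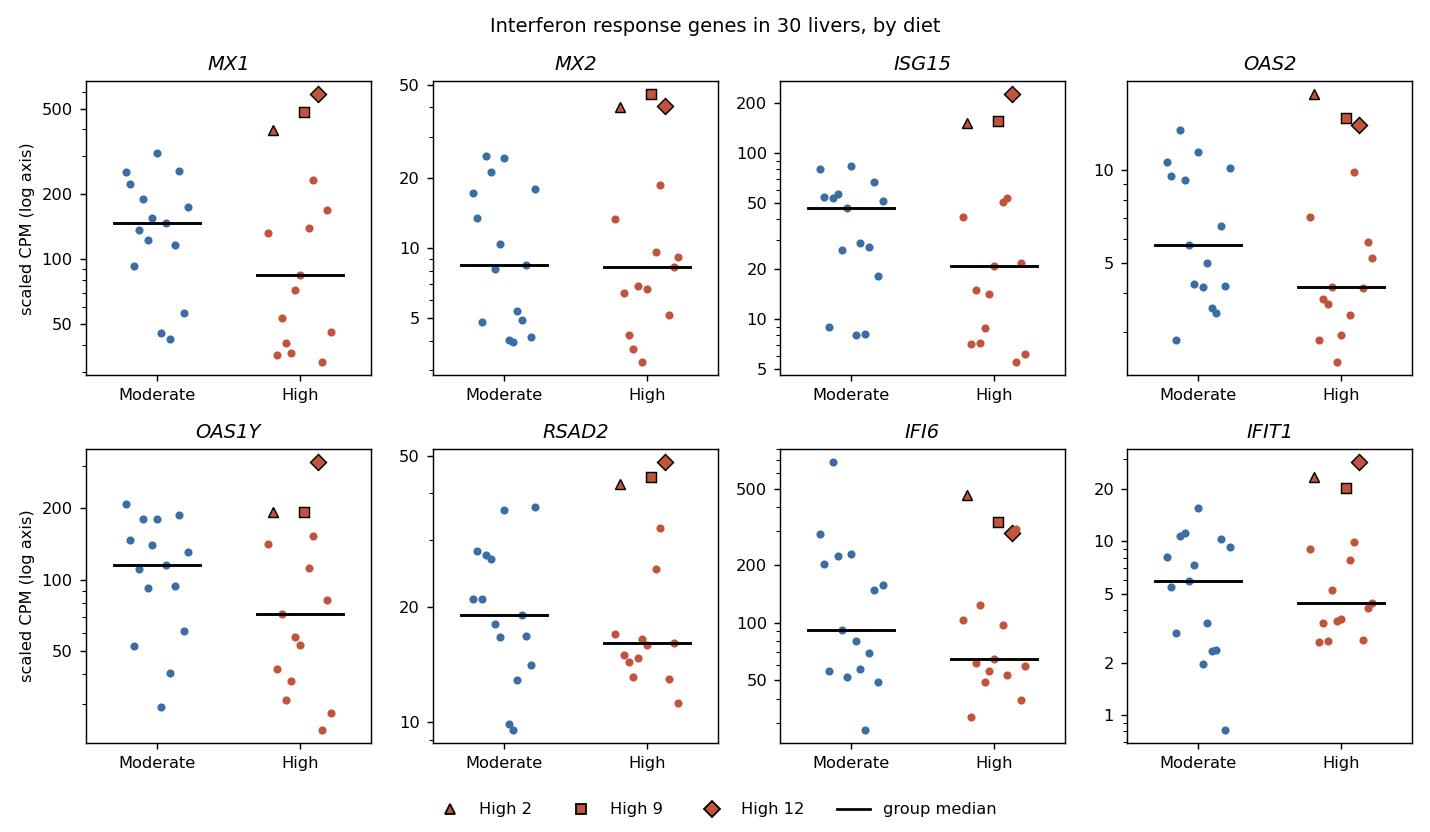
Scaled CPM (log axis) of the 8 interferon response genes in each of 15 Moderate and 15 High livers, 1 point per calf, with the group median as a bar. High replicates 2, 9 and 12 (outlined symbols) lie above all Moderate livers for MX1, MX2, ISG15, OAS2, RSAD2 and IFIT1, while the High medians lie below the Moderate medians.

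This variation between calves was large beside that of other liver genes. The SD of log2(scaled CPM + 0.5) within a diet was 1.49 for ISG15, 1.23 for IFI6, 1.19 for MX1, 1.08 for MX2, 1.07 for IFIT1, 1.01 for OAS1Y, 0.77 for OAS2 and 0.64 for RSAD2. The median over all 12913 tested genes was 0.26. ISG15 ranked 35th from the top of the tested genes and IFI6 66th, and the least variable of the 8, RSAD2, still stood at percentile 95.8. These ranks are a description, with no test. Genes were not matched for read level, and the part of counting error in these SDs was not tested.

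No interferon response gene passed the test for a difference between High and Moderate livers. By limma on log2(scaled CPM + 0.5), 0 of 8 had an adjusted p below 0.05 over all tested genes, where 12% of all tested genes did, and 0 of 8 had an unadjusted p below 0.05, where 24.2% of all tested genes did. edgeR's quasi-likelihood test, DESeq2 and voom with quality weights on the recovered reads called 0 of 8 as well, also at an unadjusted p below 0.05. Among the 12913 genes that passed the filter they called 1600, 1789 and 1665, in that order, at an adjusted p below 0.05. Their counts over all genes at an unadjusted p are not given here. The largest difference was that of OAS1Y, whose log2 fold change (High minus Moderate) was -0.43 (SE 0.34, 95% interval -1.13 to 0.27; limma, adjusted p = 0.498). The limits of the intervals show what these 15 calves per diet left undecided: ISG15 had a log2 fold change of -0.35 with an interval from -1.38 to 0.68, and MX1 one of -0.33 with an interval from -1.15 to 0.50. RSAD2, the least variable, had the narrowest interval, from -0.40 to 0.49 around 0.04. The median log2 fold change of the 8 genes was -0.17, beside -0.01 over all tested genes.

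The direction of the diet difference depended on how a diet was summarised. The High median was below the Moderate median for 8 of 8 genes, most for ISG15 (Moderate over High 2.24) and MX1 (1.75) and least for MX2 (1.02). The High mean was nevertheless above the Moderate mean for 5 of 8. The genes varied together from calf to calf, so neither count is one of separate observations. The means ± SD over 15 High calves and 15 Moderate calves were 169 ± 178 and 155 ± 80.9 scaled CPM for MX1, and 52.5 ± 68.8 and 41.4 ± 25.6 for ISG15. MX2 averaged 14.7 ± 14.7 and 11.5 ± 7.68, RSAD2 22.6 ± 12.7 and 21.0 ± 8.53, and IFIT1 8.76 ± 8.44 and 6.51 ± 4.30, in the same order. For MX1 and MX2 the SD of the High calves was about as large as their mean, and the means of ISG15 in the diets differed by less than either SD.

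The means of OAS1Y, OAS2 and IFI6 were lower in High. OAS1Y averaged 102 ± 82.2 and 118 ± 56.4 scaled CPM, OAS2 6.77 ± 4.90 and 6.96 ± 3.45, and IFI6 142 ± 136 and 161 ± 166 (High, then Moderate; SD, n = 15 each). Of the 15 High calves, only 5 were above the Moderate median for MX1, ISG15, OAS1Y and RSAD2, 6 for OAS2 and IFIT1, and 7 for MX2 and IFI6. The count test on reads, which works on mean levels, gave MX1 a log2 fold change of 0.13 and ISG15 one of 0.34 (edgeR's quasi-likelihood test, adjusted p = 0.894 and 0.741), opposite in sign to limma on log2 values.

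**Figure D2:**
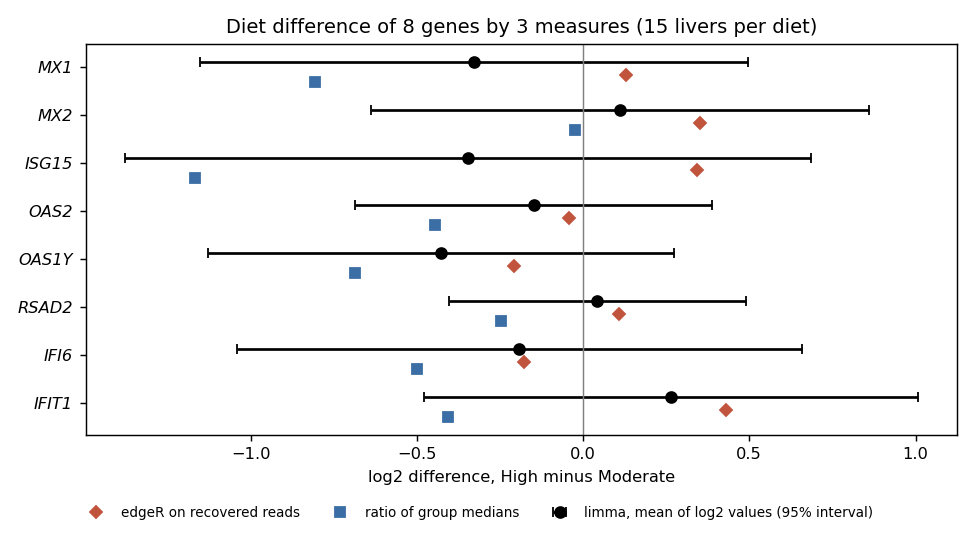
Difference between High and Moderate livers (log2, High minus Moderate) of the 8 genes by limma with its 95% interval, by edgeR on the recovered reads and as the ratio of group medians, 15 livers per diet. Every limma interval includes 0, and for MX1 and ISG15 edgeR lies to the right of 0 while limma and the medians lie to the left.

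The spread between calves was wider on the High plane for most of the genes, but no difference in spread passed the test. The SD of log2 values was larger in High for 8 of 8 genes, at 1.43 and 0.89 for MX1 and 1.77 and 1.16 for ISG15 (High and Moderate). For IFI6 it was nearly equal, at 1.24 and 1.23. The median SD over all tested genes was 0.25 in High and 0.26 in Moderate. The 8 genes varied together from calf to calf, so they are not 8 separate observations. The mean absolute deviation from the median of the own diet was 1.19 in High and 0.68 in Moderate for MX1, a difference of 0.51 (SE 0.34, 95% interval -0.16 to 1.19; limma on the deviations, adjusted p = 1.000). For ISG15 it was 1.43 in High and 0.92 in Moderate, a difference of 0.50 with an interval from -0.34 to 1.35. For OAS1Y the difference was 0.31, and for the other 5 genes it lay between -0.04 and 0.09. By this test 0 of 8 genes had an adjusted p below 0.05, where 0.0232% of all tested genes did, and 0 of 8 an unadjusted p below 0.05, where 4.68% of all tested genes did.

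The same calves were high for nearly all of these genes. High replicates 2, 9 and 12, singled out after their values were seen, were among the 3 highest High libraries for 8, 8 and 7 of the 8 genes. Replicate 2 had 398 scaled CPM of MX1, 153 of ISG15, 193 of OAS1Y, 23.6 of IFIT1 and 42.2 of RSAD2. Replicate 9 had 481 of MX1, 156 of ISG15, 192 of OAS1Y, 20.2 of IFIT1 and 44.1 of RSAD2. Replicate 12 had 582 of MX1, 226 of ISG15, 311 of OAS1Y, 28.6 of IFIT1 and 48.1 of RSAD2. The other 12 High livers reached at most 233 for MX1, 53.5 for ISG15, 153 for OAS1Y, 9.93 for IFIT1 and 32.3 for RSAD2, so for each of these genes the 3 livers stood clear of their own diet group, as they did for MX2 and OAS2.

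Those 3 libraries did not stand apart in sequencing depth. They held 12126586 to 14634145 reads, within the 11528471 to 17906182 of the other 12 High libraries, and their 10 most abundant genes took 20.8% to 24.2% of reads beside 19.8% to 25.0%. They had a read of 15493 to 15661 genes, beside 15500 to 15912. Among all 12913 tested genes these same 3 libraries were the 3 highest of the High diet for 130 (1.01%). These 130 include 7 of the interferon response genes described here. The libraries were chosen by these same genes, so that 7 was largely set by the choice. The eighth was IFI6, for which High replicate 13, at 307 scaled CPM, lay above replicate 12 at 294.

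No Moderate calf reached the lowest of those 3 livers for 6 of the 8 genes, the exceptions being OAS1Y and IFI6. The livers were chosen as the highest High livers for these same genes, so this count was partly set by the choice. How many of all tested genes show the same was not counted. The highest Moderate liver for MX1, ISG15 and IFIT1 was replicate 8, at 310, 84.2 and 15.7 scaled CPM, and it was among the 3 highest of its diet for 7 of the 8 genes. At the low end, Moderate replicates 3, 9, 11 and 14 were among the 5 lowest of their diet for 7, 7, 7 and 8 genes, and High replicates 3 and 5 for 7 each. The same calves thus recurred at either end for most of the genes, less so for IFI6 in High.

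**Figure D3:**
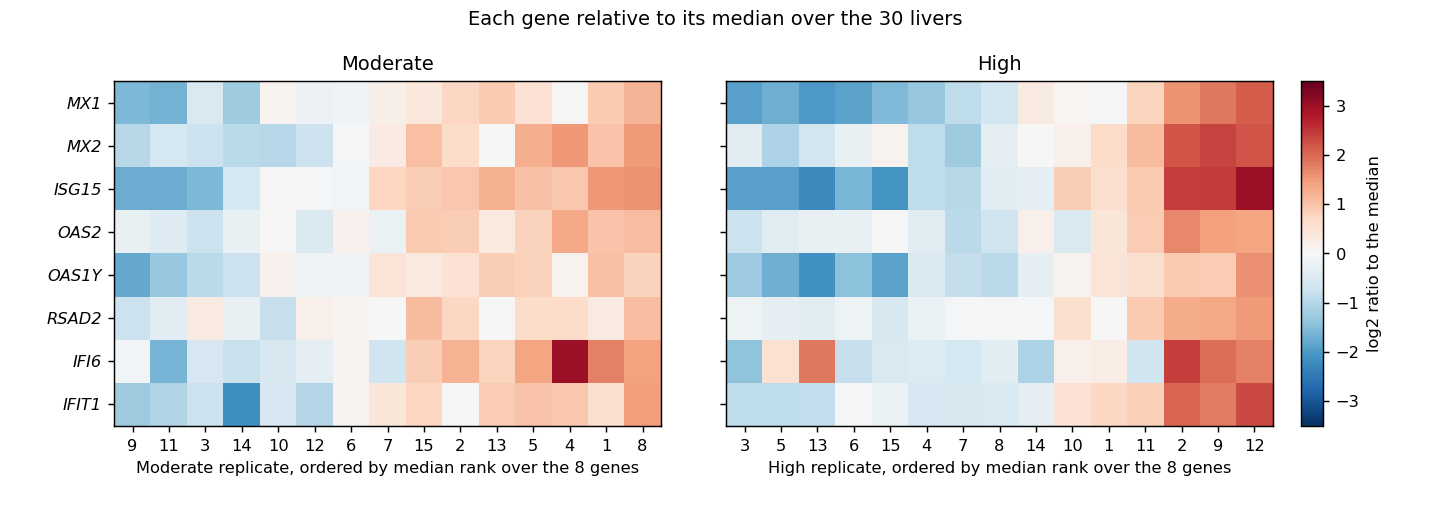
Log2 ratio of each gene to its median over the 30 livers, in Moderate and High livers ordered from left to right by their median rank over the 8 genes. Columns are mostly of 1 colour, with High replicates 2, 9 and 12 at the right, while the IFI6 row breaks the order at High replicate 13 and at Moderate replicate 4.

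Within each diet most of the 8 genes rose and fell together from calf to calf, with IFI6 the exception in High, as measured by correlation over the 15 libraries of that diet on log2(scaled CPM + 0.5). In Moderate livers Pearson's r of the 28 pairs ran from 0.586 to 0.966 with a median of 0.764, and Spearman's rho from 0.496 to 0.961 with a median of 0.773. In High livers r ran from 0.426 to 0.974 with a median of 0.891, and rho from 0.318 to 0.971 with a median of 0.788. By permutation test, with Benjamini-Hochberg adjustment over the 56 pairs of both diets, 28 of 28 pairs in Moderate and 27 of 28 in High had an adjusted p below 0.05 for r, and 27 and 20 for rho. The largest adjusted p was 0.0233 in Moderate and 0.113 in High for r, and 0.0706 and 0.247 for rho. Over all pairs of tested genes the median r was 0.00 in either diet, and 0.295% of these pairs in Moderate and 0.0110% in High had an r at or above the median of the 28.

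The correlations in High were lower without the 3 highest livers. Without the 2 libraries farthest from the median of the first gene of each pair, the median r was 0.804 in High and 0.748 in Moderate. Over the 12 High livers without replicates 2, 9 and 12, the median r was 0.663 and the median rho 0.591. These livers were chosen as the highest, so leaving them out narrows the range, which by itself lowers a correlation. No such cut was made in Moderate, where 1 library met the same rule. Whether co-variation differs between the diets was not tested.

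MX1, ISG15 and OAS1Y, a trio picked after the correlations were seen, followed each other closely in each diet. MX1 and ISG15 had an r of 0.927 in Moderate and 0.974 in High (rho 0.961 in each; permutation p = 1e-05 for r and rho in each diet, the smallest that 100000 resamples give; adjusted p = 3.73e-05 for r and 8e-05 for rho). Without the 2 farthest libraries their r was 0.860 in Moderate and 0.954 in High, and over the 12 other High livers it was 0.929. ISG15 and OAS1Y had an r of 0.966 in Moderate and 0.969 in High, and 0.960 over those 12. The 3 pairs of this trio thus stayed close with or without the highest livers.

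The pairs among MX2, OAS2 and IFIT1 had r from 0.787 to 0.909 in Moderate, 0.905 to 0.956 in High and 0.686 to 0.851 over the 12 other High livers (permutation test over 15 livers, largest adjusted p for r 0.00114 in Moderate and 0.000107 in High). The 9 pairs of these genes with MX1, ISG15 and OAS1Y had r from 0.698 to 0.838 in Moderate, 0.768 to 0.943 in High and 0.447 to 0.821 over those 12 (largest adjusted p by permutation 0.00559 and 0.0013). These ranges overlapped, and IFIT1 had a higher r with ISG15 (0.819 in Moderate, 0.943 in High) than with OAS2 (0.787 and 0.905). MX2, in turn, had a higher r with OAS2 (0.909 in Moderate, 0.940 in High) and IFIT1 (0.884 and 0.956) than with MX1, ISG15 or OAS1Y. Those reached at most 0.802 in Moderate and 0.891 in High. Whether MX2, OAS2 and IFIT1 form a group of their own was not tested. MX1 and its neighbour MX2 had an r of 0.711 in Moderate (rho 0.657; permutation p = 0.00301 for r and 0.00887 for rho; adjusted p = 0.00432 and 0.0123), below the 0.927 of MX1 with ISG15. In High, MX1 and MX2 had an r of 0.891 (rho 0.789), beside 0.974 for MX1 with ISG15. Over the 12 other High livers the r of MX1 with MX2 was 0.678. OAS2 and OAS1Y, whose reads may have been mixed, had an r of 0.698 in Moderate and 0.768 in High. MX2, OAS2 and IFIT1 also had fewer reads, down to 42 for MX2, 31 for OAS2 and 12 for IFIT1 in a library, beside at least 458 for MX1, 76 for ISG15 and 322 for OAS1Y. The part of counting error in these correlations was not tested.

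**Figure D4:**
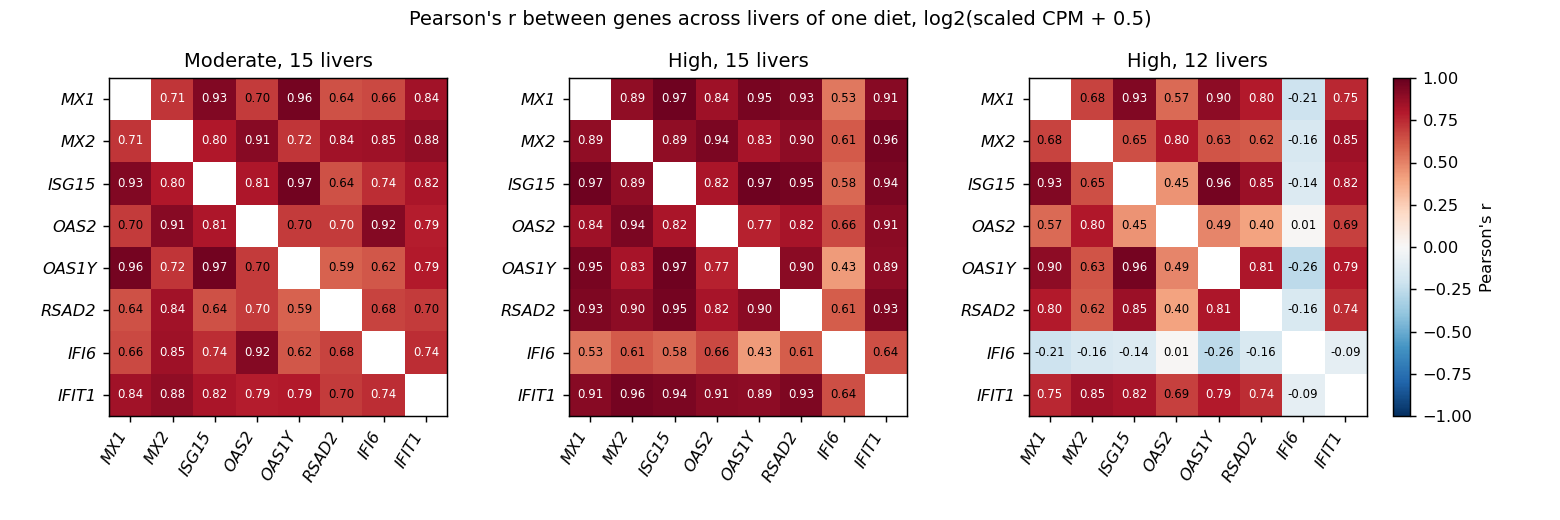
Pearson's r of log2(scaled CPM + 0.5) for the 28 pairs of genes over 15 Moderate livers, 15 High livers and the 12 High livers other than replicates 2, 9 and 12. MX1, ISG15 and OAS1Y keep an r of 0.897 or more in all 3 panels, and the IFI6 row turns to between -0.260 and 0.011 in the last.

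The values of RSAD2 with the others depended on the livers and the measure taken. Its r with the 6 genes other than IFI6 ran from 0.822 to 0.953 in High and from 0.586 to 0.841 in Moderate, and from 0.404 to 0.855 over the 12 other High livers. Over those 12 livers its rho with these genes ran from 0.105, with OAS2, to 0.902. Its rho with OAS2 was 0.529 in High and 0.671 in Moderate, and with MX2 0.743 and 0.829, so by rank these were lower in High. The rho of RSAD2 with MX1 (0.896 in High and 0.589 in Moderate) and ISG15 (0.943 and 0.639) was higher in High. So was that with OAS1Y (0.946 and 0.496) and IFIT1 (0.796 and 0.675). No difference between the diets was tested. Moderate replicate 10 was the lowest of all 30 livers for RSAD2, at 9.54 scaled CPM, while 148 scaled CPM of MX1 placed it at the middle of its diet.

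IFI6 followed the other genes in Moderate livers, and its correlations with them in High livers were lower. In Moderate its r with the 7 others ran from 0.621 to 0.915, and the highest was with OAS2 (rho 0.875; permutation p = 1e-05 for r and 4e-05 for rho; adjusted p = 3.73e-05 and 0.000204). In High its r ran from 0.426 to 0.660, its rho from 0.318 to 0.457, and 0 of the 7 pairs had an adjusted p below 0.05 for rho, though 6 did for r. The r values in High depended on which livers were kept: over the 12 livers other than replicates 2, 9 and 12 they ran from -0.260 to 0.011. That cut also narrows the range of values. Without the 2 libraries farthest from the median of the first gene of each pair, that of OAS1Y with IFI6 was 0.595 in place of 0.426, and the other 6 were 0.271 to 0.391. High replicate 13 had the lowest MX1 (33.3 scaled CPM), ISG15 (5.52) and OAS1Y (23.4) of all 30 livers and yet the fourth highest IFI6, at 307. High replicate 5, with 7.20 of ISG15, had 123 of IFI6. Moderate replicate 4 had the highest IFI6 of all livers, at 685, with 137 of MX1 and 54.0 of ISG15. The difference of these correlations between the diets was not tested.

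**Figure D5:**
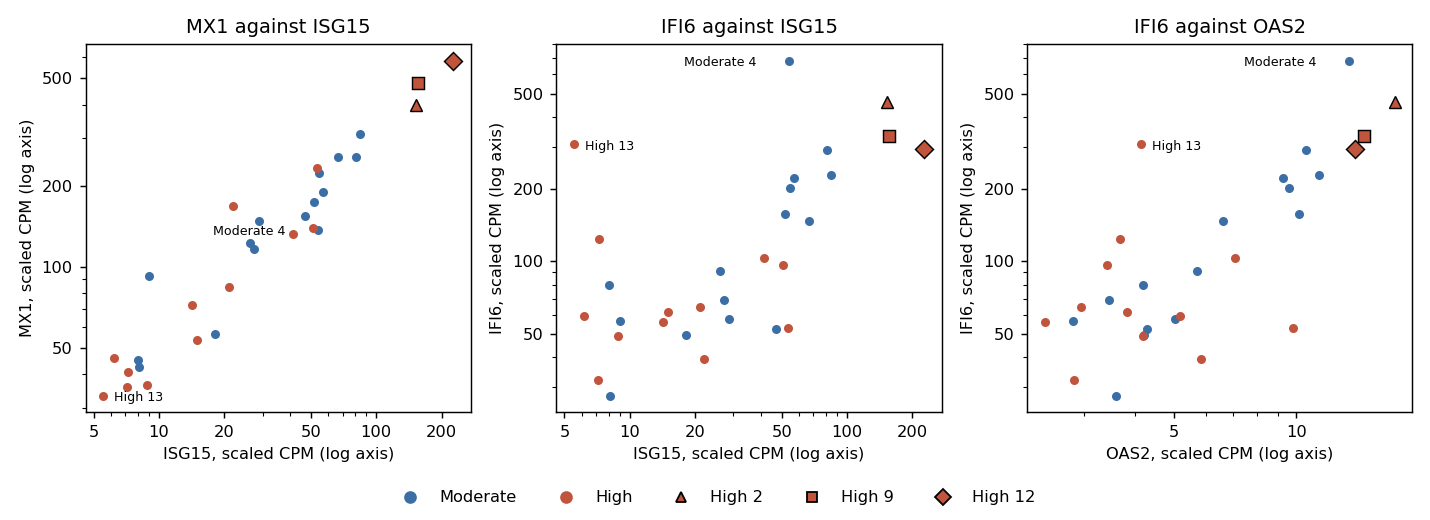
MX1 against ISG15, IFI6 against ISG15 and IFI6 against OAS2 in 30 livers, all in scaled CPM on log axes, 1 point per calf by diet. MX1 and ISG15 form 1 narrow band from High replicate 13 to High replicate 12, whereas in the IFI6 panels High replicate 13 and Moderate replicate 4 lie far above the other livers of their ISG15 or OAS2 level.

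Other liver genes shared the pattern. Each of the 12905 other tested genes was correlated with the mean of the 8 standardised genes over the 30 livers, after the mean of its diet was subtracted, as a description with no test. In all, 21 genes (0.163%) had an r of 0.9 or more and 40 (0.310%) an r of 0.8 or more. The closest was ENSBTAG00000020166, with an r of 0.971 over 30 livers and 0.958 over the 27 without High replicates 2, 9 and 12. It ran from 32.8 through a median of 42.6 to 157 scaled CPM in High and from 34.0 through 62.1 to 90.0 in Moderate. ENSBTAG00000012335 followed with an r of 0.966 (0.944 over the 27) and ran from 23.3 through 37.9 to 163 in High and from 22.6 through 45.2 to 76.6 in Moderate. Both thus had the lower median and the higher maximum in High, as had all of the 8 genes except IFI6, whose maximum was in Moderate. Of the 40 genes at 0.8 or more, 0 were called by diet, where 12% of all tested genes were, and their median log2 fold change was -0.10. At 0.7 or more 0 of 64 genes were called, with a median of -0.01. At 0.5 or more 10 of 167 were called, 9 of them higher in High, with a median of 0.07. The share higher in High among all called genes is not given here, so that direction has nothing to be set beside. Genes chosen to share 1 pattern are not separate observations.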

How the data were processed

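The deposited table holds, per gene and library, a signal: reads per 1000000 after the library total was scaled (scaled CPM), as its values show. The submitters' processing notes list the build UMD3.1 and the tools STAR 2.6.1, cutadapt 2.6, FastQC 0.11.8, edgeR 3.5 and R 3.4. The counter, annotation release and strand setting were not given in the sources used here. All 471204 values above 0 were whole multiples of 1 step per library within 0.001 of a read (100%), so whole reads were recovered. Table columns were matched to calves by the tag in each title, and diet came from the diet label.

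Genes kept by filterByExpr (a minimum of 10 reads) were fitted with limma 3.58.1, with a mean-variance trend and no covariates, on log2(scaled CPM + 0.5); p-values were adjusted (Benjamini-Hochberg) over 12913 genes. Spread was tested by the same fit on absolute deviations from the diet median. edgeR 4.0.16 and DESeq2 1.42.0 ran on the recovered reads as alternatives. Correlations used a two-sided permutation test with 100000 resamples. Scripts were tested on simulated data. Named genes were the 8 listed ones and those most like them, of which at most 4 by identifier. The genes and lists were chosen with earlier results of these data known. The reference gene table matched 0 identifiers, so the lists of other interferon pathway genes and of cell type markers were not analysed here, and no sequence is printed.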

Additional observations from a re-analysis of the deposited data

How the results depend on the processing

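The count of 0 of 8 genes called by diet held under other pseudocounts (0.1 and 1), filters, RLE, upper-quartile and plain CPM scaling, a threshold of 0.1, edgeR's quasi-likelihood test, DESeq2, voom and each of the 30 libraries left out; the smallest adjusted p of any of the 8 was 0.301 (OAS1Y without High replicate 12). So did 0 of 8 for spread, under those settings that apply to it. Several differences changed sign. The median log2 fold change of the 8 genes moved from -0.17 to 0.12 with edgeR's quasi-likelihood test and 0.12 with DESeq2 (-0.31 to -0.04 with a library left out), MX1 turned to 0.13 with either and ISG15 to 0.34 with either. With a library left out MX2 ran from -0.039 to 0.22 and RSAD2 from -0.046 to 0.11, and plain CPM gave RSAD2 -0.0034. MX2 turned below 0 without High replicate 2, 9 or 12. For spread, MX2 ran from -0.014 to 0.16, OAS2 from -0.0092 to 0.13, RSAD2 from -0.034 to 0.076, IFI6 from -0.17 to 0.10 and IFIT1 from -0.11 to 0.11 with a library left out; plain CPM gave RSAD2 -0.0026 and IFIT1 -0.031, and a pseudocount of 0.1 gave IFIT1 -0.023. The median pairwise r ran from 0.860 to 0.908 in High and 0.742 to 0.801 in Moderate with a library left out, and was 0.663 in High without replicates 2, 9 and 12, a setting chosen after the data were seen. No paired analysis was possible because the labels give calves of the 2 diets no shared number. No batch is labelled, so none was examined.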
